A study of Mus musculus with 2116 samples.

Results

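The genes described here are 39 mouse interferon-stimulated genes, chosen by name from a fixed list and not by their values in these cells. The table held 38 of them among 23725 genes, and Rnf213, the remaining member, is not analysed here. The list fell into 27 genes known chiefly as targets of type I interferon, 26 of them with a row, and 12 GTPases known chiefly as targets of interferon gamma, all with a row. Expression was measured by inDrops, a droplet method that tags each captured mRNA molecule with a unique molecular identifier (UMI), so that values are counts of tagged molecules per gene and cell. The Treg library held 816 cells and the Tconv library 1300 cells, all from spleens of male B6 Foxp3-Ires-Gfp mice aged 8 months, a strain in which green fluorescent protein reports the Treg transcription factor Foxp3. Both groups were sorted by flow cytometry on TCR beta and CD4, with dead cells gated out. Tconv stands for the Foxp3 negative cells named in the series title, although the sort protocol lists GFP positive cells for the populations together. Each group is a single library, and the labels say neither which animals the cells came from nor how many there were, so no difference between Treg and Tconv has a replicate check and none is given a p-value.

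Interferons are secreted proteins that warn cells of infection. Type I interferons bind the receptor pair Ifnar1 and Ifnar2 and, through the kinases Jak1 and Tyk2, activate a complex with Stat2 and Irf9 that binds the interferon-stimulated response element (ISRE). Interferon gamma binds Ifngr1 and Ifngr2 and, through Jak1 and Jak2, acts on genes with the gamma-activated site (GAS), and the Irf1 it induces binds ISRE-like sequences. The type I genes encode sensors of viral nucleic acid, RNA-binding and RNA-degrading effectors and membrane proteins that block virus entry or release. The GTPases are the immunity-related GTPases (IRG) and the guanylate-binding proteins (GBP), which attack the vacuoles in which intracellular parasites and bacteria live. T cells without infection are known to carry some of these transcripts, and low amounts of interferon are present in resting lymphoid tissue. Whether interferon accounts for the transcripts counted here was not tested.

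Promoter sequences of the members are shown first, since the 2 elements tie the genes to these pathways. The 250 bases before the start of each RefSeq gene (build GRCm38.p6) were searched on both strands for GAAA, any 2 bases and GAAA again, a core form of the ISRE, and for TTCNNNGAA, the GAS. Of the members, 21 type I genes (Rnf213 among them) and 8 GTPases had a promoter in the RefSeq table. The ISRE letters were in 9 of 21 type I genes (42.9%) and 7 of 8 GTPases (87.5%), against 3.46% of all 27025 genes with a promoter there and 3.33% of those with at least 20 UMIs here. The GAS letters were in 5 type I genes (23.8%) and 4 GTPases (50%), against 8.13% of all genes. ISRE matches may overlap one another or a GAS match, and a match is a run of letters, not a measured binding site.

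Stretches of 80 bases are printed 5′ to 3′ on the gene's strand for 5 members, with ISRE and GAS matches in capitals. Samhd1 (chr2:157135267-157135346, minus strand) is the type I member with the most UMIs and has 1 GAS match. Isg15 (chr4:156200840-156200919, minus strand) has 3 overlapping ISRE matches, the last ending 56 bases before the start. Igtp (chr11:58199476-58199555, plus strand) and Irgm2 (chr11:58214878-58214957, plus strand) each have 1 GAS match followed by 1 ISRE match. They are neighbours on chromosome 11, and their stretches share an unbroken run of 29 letters that holds the ISRE match. Gbp2 (chr3:142620569-142620648, plus strand) has 1 ISRE match, read on the opposite strand.
Samhd1: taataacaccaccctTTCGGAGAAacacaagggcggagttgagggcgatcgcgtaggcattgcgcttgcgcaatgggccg
Isg15: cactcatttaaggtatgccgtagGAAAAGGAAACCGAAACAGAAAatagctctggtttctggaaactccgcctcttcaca
Igtp: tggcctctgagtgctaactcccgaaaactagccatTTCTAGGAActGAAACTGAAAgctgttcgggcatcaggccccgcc
Irgm2: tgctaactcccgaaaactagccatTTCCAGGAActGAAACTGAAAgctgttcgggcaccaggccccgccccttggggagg
Gbp2: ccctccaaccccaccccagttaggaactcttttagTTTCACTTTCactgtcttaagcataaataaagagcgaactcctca

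The Treg library held 1468203 UMIs (median 1688.5 per cell) and the Tconv library 2002752 (median 1510.5), and the median cell had 53154 and 28462.5 mapped reads, per the labels. The libraries shared 12 cell barcodes. All intervals below are 95% intervals that cover counting error only. UMIs of single genes were clumped in cells: after thinning to 1000 UMIs per cell the median Fano factor (variance over mean, 1 for independent counts) was 1.59 over 7214 genes in Treg and 1.26 over 7856 genes in Tconv. The intervals are therefore narrower than the true uncertainty. Izumo1r, the Treg folate receptor 4, had 1385 CPM in Treg against 159.8 in Tconv, and the sum of 7 T lineage genes stood at a log2 ratio of 0.01 (-0.04 to 0.06), with single genes from -0.49 (Cd4) to 0.91 (Cd2) and Lck, the most counted, at 0.05. The sum of 12 effector markers stood at 0.99 (0.93 to 1.05), with Crip1, the most counted, at 0.34 and S100a4 at 2.93. The sum of 10 resting markers stood at -0.85 (-0.90 to -0.79), with Satb1, the most counted, at -0.88. Markers of other cell types were present as well. Cells with at least 3 UMIs of a list of another type numbered 67 in Treg (8.21%) and 35 in Tconv (2.69%). Summed over each list, B cell markers were at 684.5 CPM in Treg against 179.3 in Tconv, myeloid markers at 553.1 and 304.1, plasma cell markers at 105.6 and 238.7, plasmacytoid dendritic cell markers at 150.5 and 72.9, erythroid markers at 151.2 and 0, CD8 or NK markers at 99.4 and 92.4, and platelet markers at 10.9 and 2.0. Single markers of a list could differ in direction. Jchain, the most counted plasma cell marker, had 0 UMIs in Treg and 185.7 CPM in Tconv, while Xbp1, Mzb1 and Prdm1 stood at 1.13, 1.03 and 0.70, and cells with at least 3 plasma cell UMIs were 1.72% of Treg and 0.462% of Tconv cells. Lyz1, the most counted myeloid marker, stood at 0.34, the macrophage gene C1qa had 48 UMIs in Treg and none in Tconv, and Itgam had 4 and 23. In the remaining cells of at least 1000 UMIs, thinned to that depth, Cd74 was seen in 1.76% of Treg and 0.0929% of Tconv cells. Lyz1 was seen in 0.294% and 0.0929%, Cd79a in 0.441% and 0%, Hba-a2 in 0.294% and 0%, and Hbb-bs in 0% of both. These are a rough guide for the low shares below, although whether these UMIs are stray RNA was not tested.

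Interferon-stimulated genes made up more of the Treg than of the Tconv transcripts. The 38 members held 7468 UMIs in Treg (0.509% of the library) and 6365 in Tconv (0.318%). The type I genes reached 3190 counts per 1000000 UMIs (CPM) in Treg against 1933 in Tconv, a log2 ratio of 0.72 (0.66 to 0.78). The GTPases reached 1897 CPM in Treg against 1245.3 in Tconv, a log2 ratio of 0.61 (0.53 to 0.69). Both sums were higher in Treg, by 1.65-fold and 1.52-fold.

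The type I total rested on few genes. Without Samhd1 and Ifi27l2a, a pair singled out after their values were seen, the type I genes came to 2425 UMIs in Treg against 2630 in Tconv, or 1652 and 1313 CPM, a log2 ratio of 0.33 (0.25 to 0.41). Ratios were taken for genes with at least 20 UMIs over both libraries, which 37 of the 38 members reached. The median over 25 type I genes was 0.38 and over the 12 GTPases 0.80, beside 0.14 over all 8988 genes that reached the minimum. At least 2-fold higher in Treg were 4 of 25 type I genes and 5 of 12 GTPases, against 8.61% of all genes, and none of the members was at least 2-fold lower, against 3.6% of all genes. At 1.5-fold, 8 type I genes and 8 GTPases were higher, against 20.6% of all genes, and 1 type I gene was lower, against 9.16%. With 2 scalings that bring the median of all genes to about 0 (0.01 when ribosomal protein genes do not count towards the total, -0.02 with TMM factors), the type I count stayed at 4 and the GTPase count was 3, against 6.94% and 6.7% of all genes at least 2-fold higher.

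**Figure D1:**
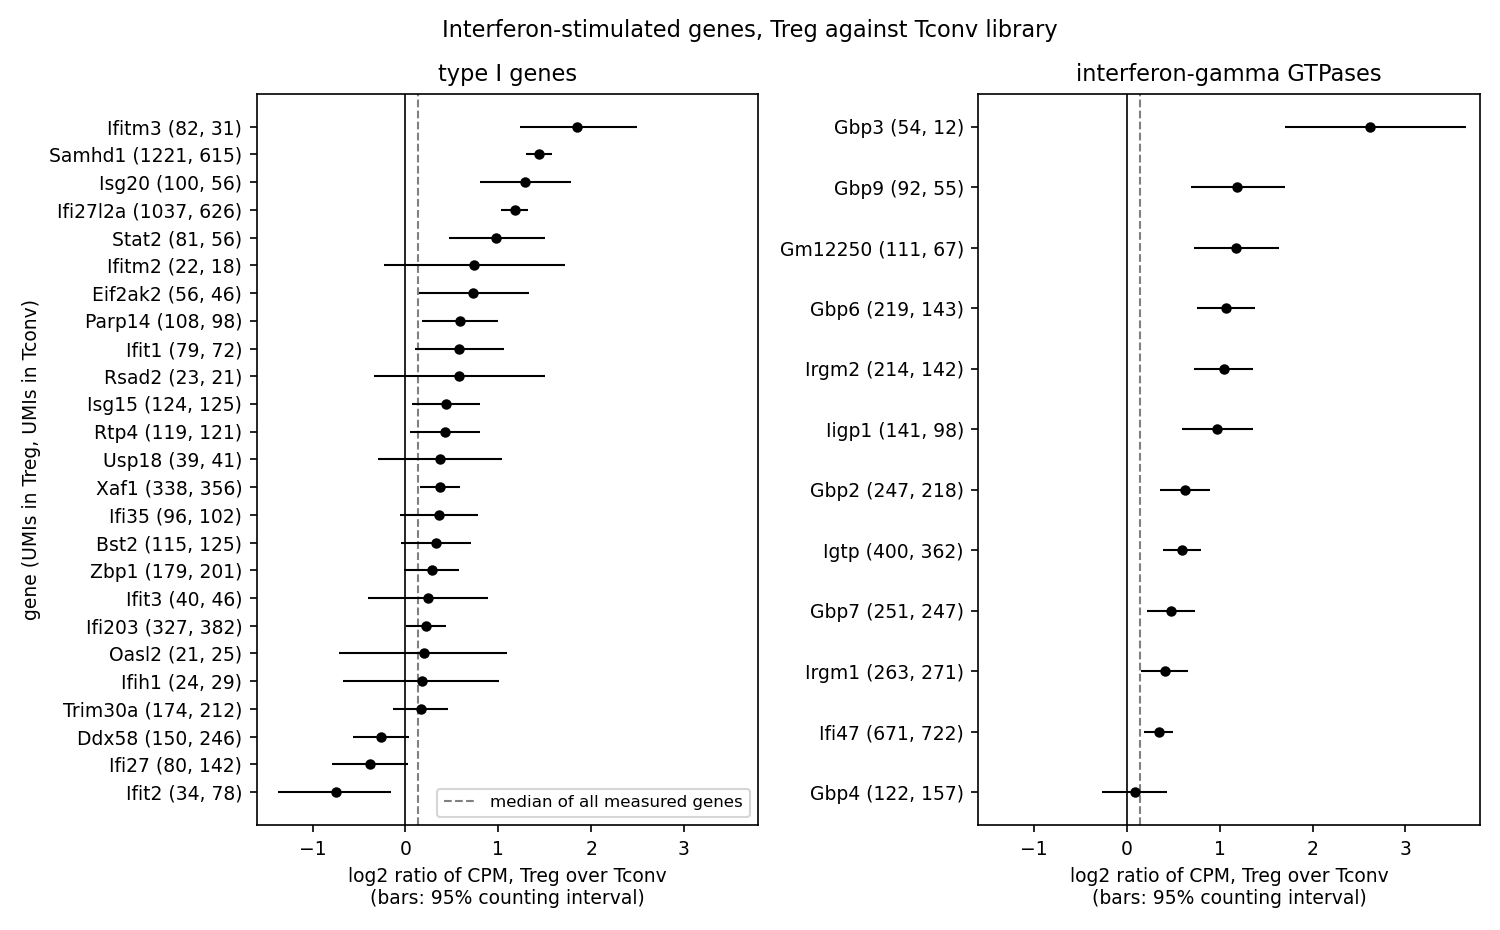
Log2 ratio of CPM in Treg over Tconv for each member with at least 20 UMIs, type I genes on the left and GTPases on the right; points are ratios, bars are 95% counting intervals, and numbers beside the names are UMIs in Treg and Tconv. The solid line is 0 and the dashed line the median of all measured genes, 0.14; 3 type I genes lie below 0 (Ifit2, Ifi27 and Ddx58), and among the GTPases Gbp3 lies farthest to the right and Gbp4 nearest 0.

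Among the type I genes grouped here as effectors, Samhd1 differed most in counts. Samhd1 degrades deoxynucleotides and so starves retroviruses of the material for reverse transcription. It had 831.6 CPM in Treg against 307.1 in Tconv, a log2 ratio of 1.44 (1.30 to 1.58). Isg20, a 3′ exonuclease that degrades single-stranded RNA, had 68.1 and 28 CPM and stood at 1.28 (0.80 to 1.78). Eif2ak2 encodes PKR, the kinase that stops translation on sensing double-stranded RNA, and had 56 and 46 UMIs and a ratio of 0.73 (0.14 to 1.33). Its sign was not stable, since in cells thinned to 1000 UMIs the ratio was -0.17.

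The Ifit genes, whose products bind viral RNA that lacks host-type caps, differed among themselves. Ifit1 had 79 UMIs in Treg against 72 in Tconv (0.58, 0.10 to 1.06), and Ifit3 had 40 and 46 UMIs (0.25, -0.40 to 0.89). Ifit2 had 34 UMIs in Treg against 78 in Tconv and was the member with the lowest ratio, -0.75 (-1.38 to -0.15), although it lies beside the other Ifit genes on chromosome 19 (chr19:34550694-34650009, GRCm38, for the 3 together). Low counts left 2 more effectors unresolved. Rsad2, the antiviral radical enzyme viperin, had 23 and 21 UMIs (0.58, -0.34 to 1.5), and Oasl2, of the 2′-5′-oligoadenylate synthetase family, had 21 and 25 UMIs (0.20, -0.71 to 1.09). Zbp1, which senses Z-form nucleic acid and can start cell death, had 121.9 and 100.4 CPM (0.28, -0.02 to 0.58).

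The cytoplasmic RNA sensors had intervals that included 0. Ddx58 encodes RIG-I and had 102.2 CPM in Treg against 122.8 in Tconv, a ratio of -0.27 (-0.57 to 0.03). Ifih1 encodes MDA5 and had 24 and 29 UMIs, a ratio of 0.17 (-0.67 to 1.01) that was -0.93 in thinned cells. Together the sensors had 118.5 and 137.3 CPM, a ratio of -0.21 (-0.49 to 0.07).

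The ISG15 pathway stood a little above the median of all genes. Isg15, a ubiquitin-like protein that is attached to other proteins, had 84.5 and 62.4 CPM (0.44, 0.07 to 0.81). Usp18, which removes it and dampens signalling at the type I receptor, had 39 and 41 UMIs (0.38, -0.29 to 1.04). Stat2, a part of the complex that binds the ISRE, had 81 UMIs in Treg against 56 in Tconv, a ratio of 0.98 (0.47 to 1.5). Ifi35 had 65.4 and 50.9 CPM (0.36, -0.06 to 0.78). Of these 4, Stat2 was thus the one with the largest difference.

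Among the membrane proteins, the Ifitm genes rested on few cells, many of them with markers of other cell types. Ifitm3, which blocks virus fusion in endosomes, had 82 UMIs in Treg against 31 in Tconv, a ratio of 1.85 (1.24 to 2.50). A single Treg cell held 41 of the 82. Cells with UMIs of other types held 59.8% of the Ifitm3 UMIs in Treg and 80.6% in Tconv, and without those cells 33 and 6 UMIs were left, a ratio of 3.0. Ifitm2, of the same family, had 22 and 18 UMIs (0.74, -0.23 to 1.72) and 11 and 3 without those cells, and Ifitm1 had 14 UMIs in Treg and 1 in Tconv. Bst2 encodes tetherin, which holds budding virus to the membrane and is abundant on plasmacytoid dendritic cells and plasma cells. It had 78.3 and 62.4 CPM (0.33, -0.05 to 0.70). In Treg, 1 cell held 20% of its UMIs, and without cells of other types the ratio was -0.21. Ifitm3 and Ifitm2 thus stood higher and Bst2 lower without those cells.

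The type I genes with other roles were led by Ifi27l2a. Ifi27l2a, a small protein of the ISG12 family, had 706.3 CPM in Treg against 312.6 in Tconv, a ratio of 1.18 (1.03 to 1.32). Its neighbour and relative Ifi27 went the other way, with 54.5 and 70.9 CPM and a ratio of -0.38 (-0.79 to 0.03). Xaf1, which antagonises the apoptosis inhibitor XIAP, had 230.2 and 177.8 CPM (0.37, 0.15 to 0.59). Parp14, an ADP-ribosyltransferase, had 73.6 and 48.9 CPM (0.59, 0.18 to 1.0), and Rtp4 had 81.1 and 60.4 CPM (0.42, 0.05 to 0.80). Ifi203, of the family of HIN domain DNA-binding proteins, had 222.7 and 190.7 CPM (0.22, 0.01 to 0.44), but its exons share 37 bases with the neighbouring Mndal, so its count is uncertain. Trim30a, of the tripartite motif ubiquitin ligase family, had 118.5 and 105.9 CPM (0.16, -0.13 to 0.46). Apart from Ifi27l2a and Ifi27, these genes lay between 0.16 and 0.59.

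All 12 GTPases had ratios above 0. Gbp4, the lowest, was at -0.05 when ribosomal protein genes did not count towards the total, and at -0.07 with TMM factors. Among the IRG proteins, the family divides into the effectors that coat vacuoles and the regulators Irgm1, Irgm2 and Igtp (Irgm3) that keep those effectors off the cell's own membranes. Irgm2 had 145.8 CPM in Treg against 70.9 in Tconv, a ratio of 1.04 (0.73 to 1.36). The other regulators differed less: Igtp had 272.4 and 180.8 CPM (0.59, 0.38 to 0.80), and Irgm1 had 179.1 and 135.3 CPM (0.40, 0.15 to 0.65). Exons of Igtp and Irgm2 overlap in the GENCODE annotation, and reads there could be counted for either, so the difference between them is uncertain.

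The effectors of the IRG family ranged more widely. Ifi47, the most counted GTPase, had 457.02 CPM in Treg against 360.5 in Tconv, a ratio of 0.34 (0.19 to 0.5). Iigp1 (Irga6), which is loaded on the vacuole of Toxoplasma, had 96 and 48.9 CPM, a ratio of 0.97 (0.59 to 1.36). Gm12250, the locus known as Irgb10 although the annotation used here lists it as a processed pseudogene, had 75.6 and 33.5 CPM and a ratio of 1.18 (0.73 to 1.64). The IRG genes together had 1225.99 CPM in Treg against 829.9 in Tconv, a ratio of 0.56 (0.47 to 0.66).

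Guanylate-binding proteins, large GTPases that assemble on pathogen membranes and help release bacterial products to inflammasomes, had 670.9 and 415.4 CPM, a ratio of 0.69 (0.56 to 0.83). Gbp3 had 54 UMIs (36.8 CPM) in Treg against 12 (5.99 CPM) in Tconv, a ratio of 2.62 (1.70 to 3.66), the largest of any member. It lies between Gbp7 and Gbp2 on chromosome 3 (chr3:142530342-142638008, GRCm38, for the 3 genes). Its neighbours differed far less, Gbp2 with 168.2 and 108.8 CPM (0.63, 0.36 to 0.90) and Gbp7 with 170.96 and 123.3 CPM (0.47, 0.21 to 0.73). On chromosome 5, Gbp9 had 92 and 55 UMIs (1.19, 0.69 to 1.70) and Gbp6 had 149.2 and 71.4 CPM (1.06, 0.75 to 1.38), while Gbp4 had 83.1 and 78.4 CPM (0.08, -0.27 to 0.43). Large and small differences thus occurred side by side in the gene clusters of both chromosomes.

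Some chromosome 5 genes share sequence with relatives. Gbp4 and Gbp9 share 60 exonic bases, and Gbp6 shares 1726 with the predicted gene Gm43302. Of the cells with a UMI of Gbp10, a near copy of Gbp6, 90.9% in Treg and 84.3% in Tconv also had a Gbp6 UMI. In 40 of the 60 Treg cells and 38 of the 43 Tconv cells with both, the 2 counts were equal, so Gbp6 and Gbp10 are not separate measurements here. For Igtp and Irgm2, 44.2% of Irgm2 cells in Treg also had an Igtp UMI, and the counts were equal in 15 of 38 such cells; in Tconv it was 37.5%, with equal counts in 8 of 30. Igtp and Ifi47, a pair compared for reference, had equal counts in 26 of 81 Treg and 36 of 91 Tconv cells with both.

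The ligands were all but absent from the table's cells. Of 8 interferon genes looked at, Ifng had 1 UMI in Tconv and the other 7 had none. Receptors and signalling genes were split. Ifngr1, the ligand-binding chain for interferon gamma, had 154.6 CPM in Treg against 81.9 in Tconv (0.92, 0.62 to 1.22), and Ifnar1, a chain of the type I receptor, had 143.7 and 95.4 CPM (0.59, 0.30 to 0.88). The partner chains had intervals that included 0, Ifngr2 at 0.13 (-0.32 to 0.58) and Ifnar2 at 0.09 (-0.33 to 0.51). Irf9, the DNA-binding part of the ISRE complex, had 320.8 and 219.7 CPM (0.55, 0.36 to 0.74). Irf1 had 183.2 and 132.3 CPM (0.47, 0.22 to 0.72). The kinase Jak1, which every interferon receptor uses, was not higher in Treg, with 685.2 and 766.9 CPM (-0.16, -0.28 to -0.05). Nor was the phosphatase Ptpn6, with 162.1 and 163.3 CPM (-0.01, -0.26 to 0.23).

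Socs1, the feedback inhibitor that binds Jak kinases and is known for restraining interferon gamma signalling, was the 1 gene of the 15 in this list at least 2-fold apart, against 8.61% of all genes higher and 3.6% lower. It had 160.1 CPM in Treg against 42.4 in Tconv, a ratio of 1.92 (1.55 to 2.29). Socs3, a related inhibitor, had 151.2 and 120.8 CPM (0.32, 0.05 to 0.59). The median of the 15 genes was 0.39.

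A wider list of 57 other interferon-stimulated genes had 43 measured members with a median of 0.39, of which 7 were at least 2-fold higher in Treg, against 8.61% of all genes, and 1 lower, against 3.6%. Those higher were Gbp5 (2.08, 1.32 to 2.91), Oas1a (1.64, 0.28 to 3.16), Oas1g (1.45, 0.04 to 3.0), Ms4a4c (1.12, 0.70 to 1.55), Nlrc5 (1.11, 0.66 to 1.56), Gbp10 (1.11, 0.61 to 1.61) and Ly6e (1.11, 1.0 to 1.22). Oas1a and Oas1g had under 30 UMIs each and are named to complete the count. Ly6e, a lipid-anchored surface protein, was the most counted of the 7, with 1265.5 CPM in Treg against 586.2 in Tconv. Sp100, a nuclear body protein, was the lower one, with 15 and 42 UMIs (-1.04, -1.99 to -0.16). Among the most counted genes, Shisa5 stood at 0.38, Slfn5 at 0.41, Tap1 (peptide transport for MHC class I) at 0.52, Psmb8 (immunoproteasome) at 0.32, Ms4a6b at 0.13, Ly6a at 0.07 and Ms4a4b at -0.48. Abundant interferon-responsive genes of T cells were thus found on either side of the all-gene median.

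Within each library the UMIs were spread over very different numbers of cells from gene to gene. Shares of cells are given after each cell was thinned to 1000 UMIs, which kept 90.4% of Treg and 85.2% of Tconv cells and left out the shallower ones. Samhd1 had a UMI in 43.6% of Treg cells (40 to 47.3) against 20.7% in Tconv (18.3 to 23.2), or in 53.6% and 26.9% of all cells without thinning. Ifi27l2a had a UMI in 40.1% and 21.3% of thinned cells, and in 53.2% and 28.8% without thinning. These were the members found in most Treg cells.

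For Ifi47, the most widely detected GTPase, the shares were alike: 22.1% of Treg cells (19.1 to 25.3) against 22% in Tconv (19.6 to 24.6), or 28.9% and 27.2% without thinning. Its UMIs per positive cell differed instead, 2.84 in Treg and 2.05 in Tconv before thinning. Ifi203 had likewise 15.7% and 16.3% of thinned cells. Iigp1 (8.40% and 4.15%), Irgm2 (7.99% and 4.15%) and Gbp6 (10.3% and 5.96%) were found in a larger share of Treg cells. Gbp3 had a UMI in 3.12% of Treg and 0.271% of Tconv cells, the latter 3 cells. Low shares can be set beside those of the other cell types' markers above, taken at the same depth but only in cells without those types' UMIs. In Treg, Ifit2, Ifit3, Ifitm3 (each 1.63%), Oasl2 (1.36%), Rsad2 (1.08%), Ifih1 (0.813%), Ifitm2 (0.678%) and Ifitm1 (0.542%) were below the 1.76% of Cd74, the highest of those markers. They were above the 0.441% of Cd79a, the next highest. Ifit2 (1.63% and 3.61%), Ifi27 (4.34% and 7.22%) and Ddx58 (5.15% and 8.12%) were found in a larger share of Tconv cells, as in their ratios.

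**Figure D2:**
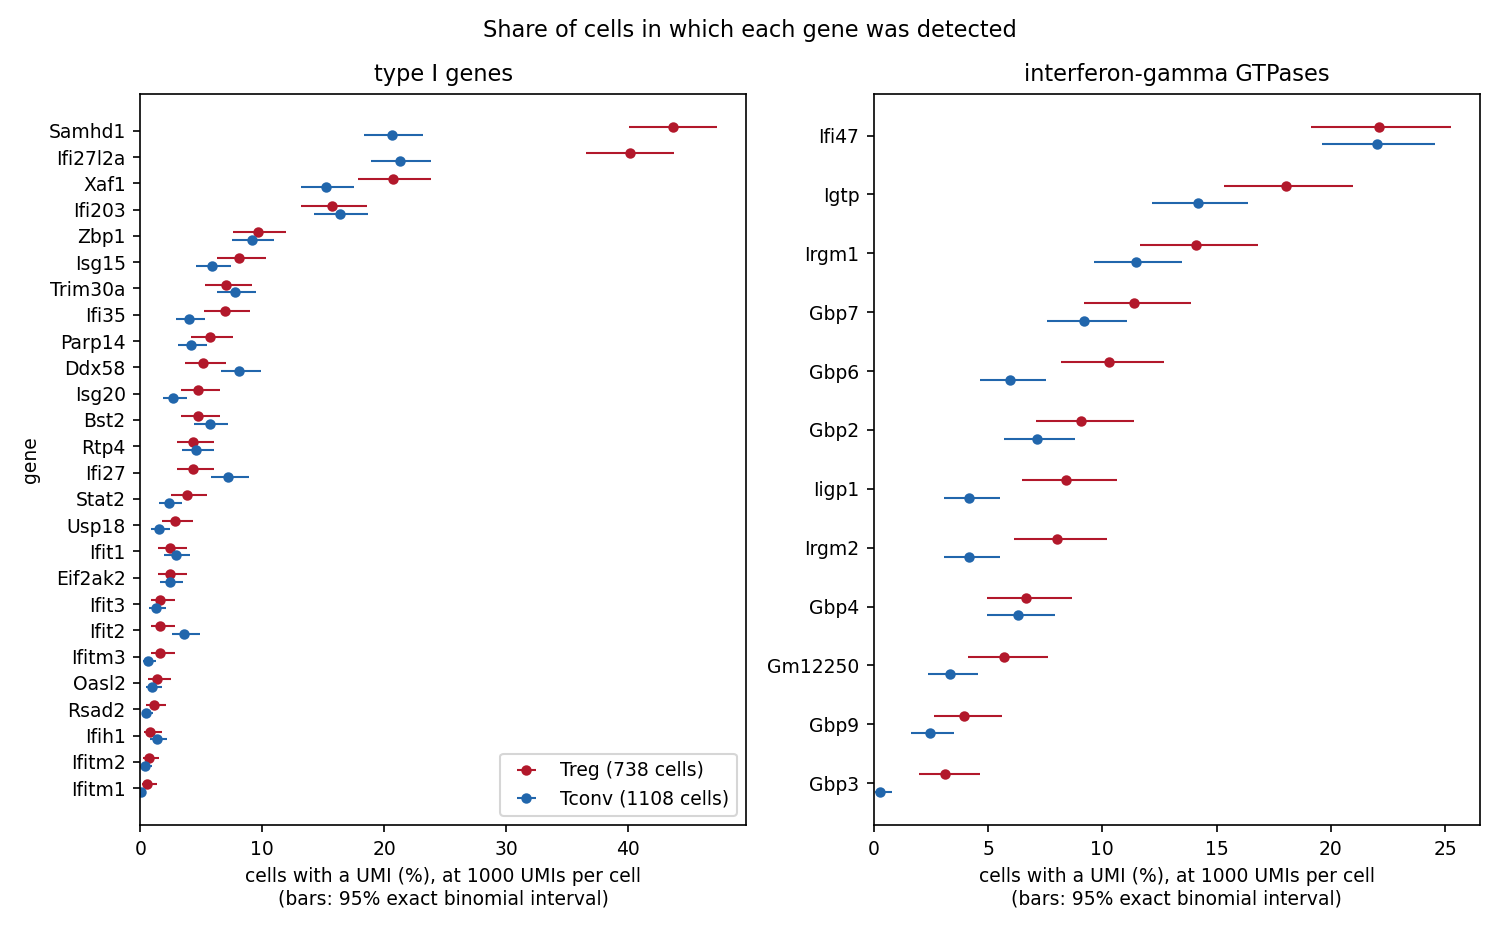
Percent of cells with at least 1 UMI of each member after thinning to 1000 UMIs per cell, in both libraries; bars are 95% exact binomial intervals. Samhd1 and Ifi27l2a stand apart at 40% or more of Treg cells, and Ifi47 sits at the same share in both libraries.

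Some members had their UMIs piled up in few cells. Before thinning, Ifit3 had 40 UMIs in 12 of 816 Treg cells, 3.33 per positive cell, and 9 of them in 1 cell. In Tconv it had 1.84 per positive cell. After thinning it had 22 UMIs in 12 Treg cells and 26 in 14 Tconv cells. Rtp4 had 2.90 UMIs per positive cell in Treg and 1.75 in Tconv, and Gbp2 had 2.81 and 2.12. At the other end, again before thinning, Isg15 had 1.23 and 1.19 UMIs per positive cell, and Ifi27 had 1.19 and 1.20. In thinned cells the median Fano factor was 1.79 over 23 type I genes and 2.01 over 12 GTPases in Treg, beside 1.59 over all genes, and 1.54 and 1.65 in Tconv, beside 1.26. Genes of low count with several UMIs per positive cell and genes of similar count spread 1 per cell thus occurred in the same list.

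Summed over a list, most cells carried some of these transcripts. At 1000 UMIs per cell, 87.7% of Treg (85.1 to 90) and 76.2% of Tconv cells (73.6 to 78.7) had a type I UMI. For the GTPases the shares were 64.2% (60.7 to 67.7) and 54.6% (51.6 to 57.6). Cells with 5 or more type I UMIs were 24% of Treg and 8.12% of Tconv cells, and those with 5 or more GTPase UMIs 13.7% and 5.87%. The share of cells with none was lower in Treg and the share with 5 or more higher, for both lists.

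**Figure D3:**
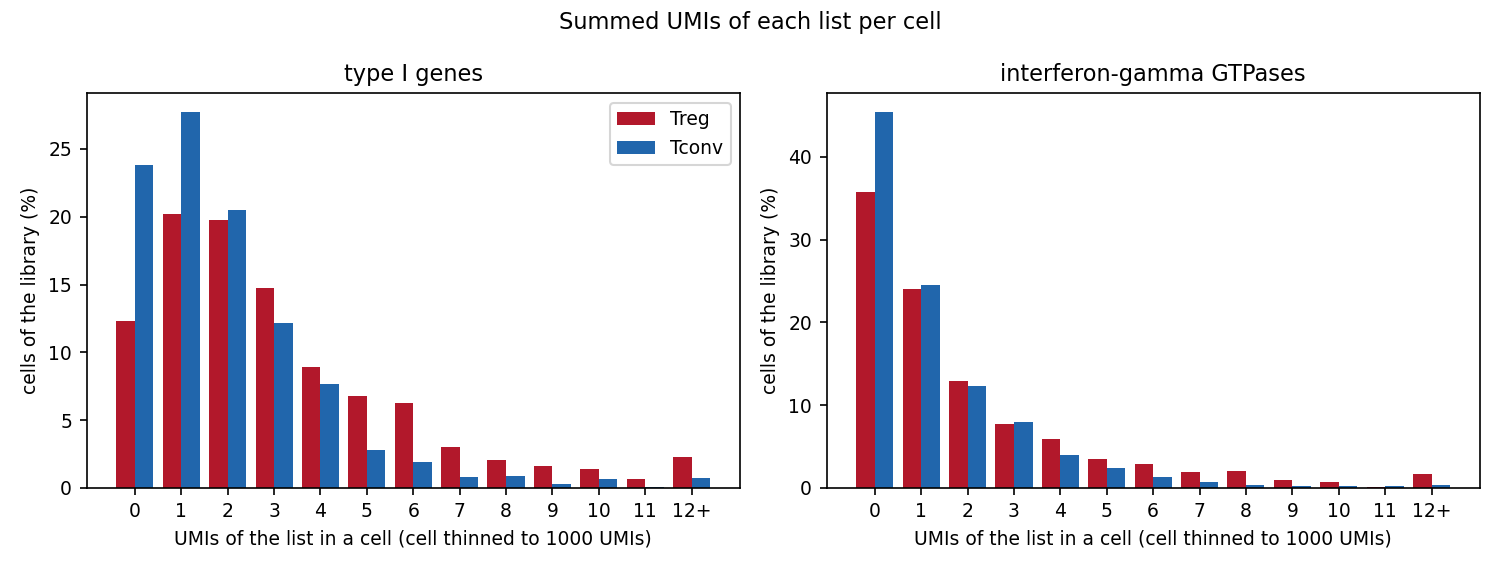
Percent of cells by the number of type I (left) and GTPase (right) UMIs they held after thinning to 1000 UMIs; the last bar holds 12 or more. Tconv has more cells at 0 (23.8% and 45.4%, against 12.3% and 35.8% in Treg), and Treg more cells with 5 or more UMIs (24% and 13.7%, against 8.12% and 5.87%). Samhd1 and Ifi27l2a are counted in the type I totals.

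The list totals varied between cells by more than counting. The Fano factor of the type I total was 2.98 in Treg and 2.73 in Tconv, and that of the GTPase total 4.08 and 2.76. Covariance between members made up 33.8% of the type I variance in Treg and 43.1% in Tconv, and 39.9% and 36.4% of the GTPase variance. The 5% of cells with the highest totals held 19.4% of the type I UMIs in Treg and 23% in Tconv, and 27% and 28% of the GTPase UMIs. A few cells stood far out. One Treg cell of 3146 UMIs held 30 type I UMIs after thinning. Before thinning it had UMIs of 19 type I members, led by Samhd1 and Ifi27l2a with 15 each, Rtp4 with 11 and Ifitm3 with 10, and 58 GTPase UMIs besides. In Tconv, 1 cell of 1015 UMIs held 31 type I UMIs over 15 members, led by Samhd1 and Rsad2 with 4 each, and 3 GTPase UMIs. Another Treg cell, of 1295 UMIs, held 37 GTPase UMIs over 11 of the 12 members, led by Gbp2 with 15, and 10 type I UMIs. None of these 3 cells reached 3 UMIs of another cell type's list.

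Members of a list tended to be found in the same cells. For each member seen in at least 10 thinned cells, the mean UMIs of the other members of its list were compared between cells with and without it. Among the GTPases every tested member gave a ratio above 1 in both libraries, with a median of 1.91 in Treg (12 genes, 1.58 to 2.5) and 2.0 in Tconv (11 genes, 1.49 to 2.47). The highest in Treg was Iigp1, whose 62 positive cells had a mean of 4.26 other GTPase UMIs against 1.70 in the rest, a ratio of 2.5 (2.18 to 2.86). Among the type I genes the median ratio was lower, 1.31 in Treg and 1.62 in Tconv over 22 genes each.

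Ifit3 and Ifit1 were among the type I genes with the highest ratios in both libraries. The 14 Tconv cells with an Ifit3 UMI had a mean of 8.29 other type I UMIs against 1.86 in the rest, a ratio of 4.45 (3.65 to 5.36), and the 12 in Treg had 8.25 against 3.07, a ratio of 2.68 (2.17 to 3.28). Ifit1 gave 2.65 in Treg and 2.85 in Tconv, Usp18 1.63 and 3.19, Isg15 1.52 and 2.11, and Rtp4 1.68 and 1.99. The same cells were richer in GTPases: with Ifit3 the mean GTPase UMIs were 2.40 times higher in Treg and 3.07 times in Tconv. Samhd1, in contrast, gave 1.22 (1.11 to 1.35) and 1.17 (1.04 to 1.30), and Ifi27 1.09 and 0.93. Samhd1, the most counted type I member, was thus below the list median in both libraries, 1.31 in Treg and 1.62 in Tconv.

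**Figure D4:**
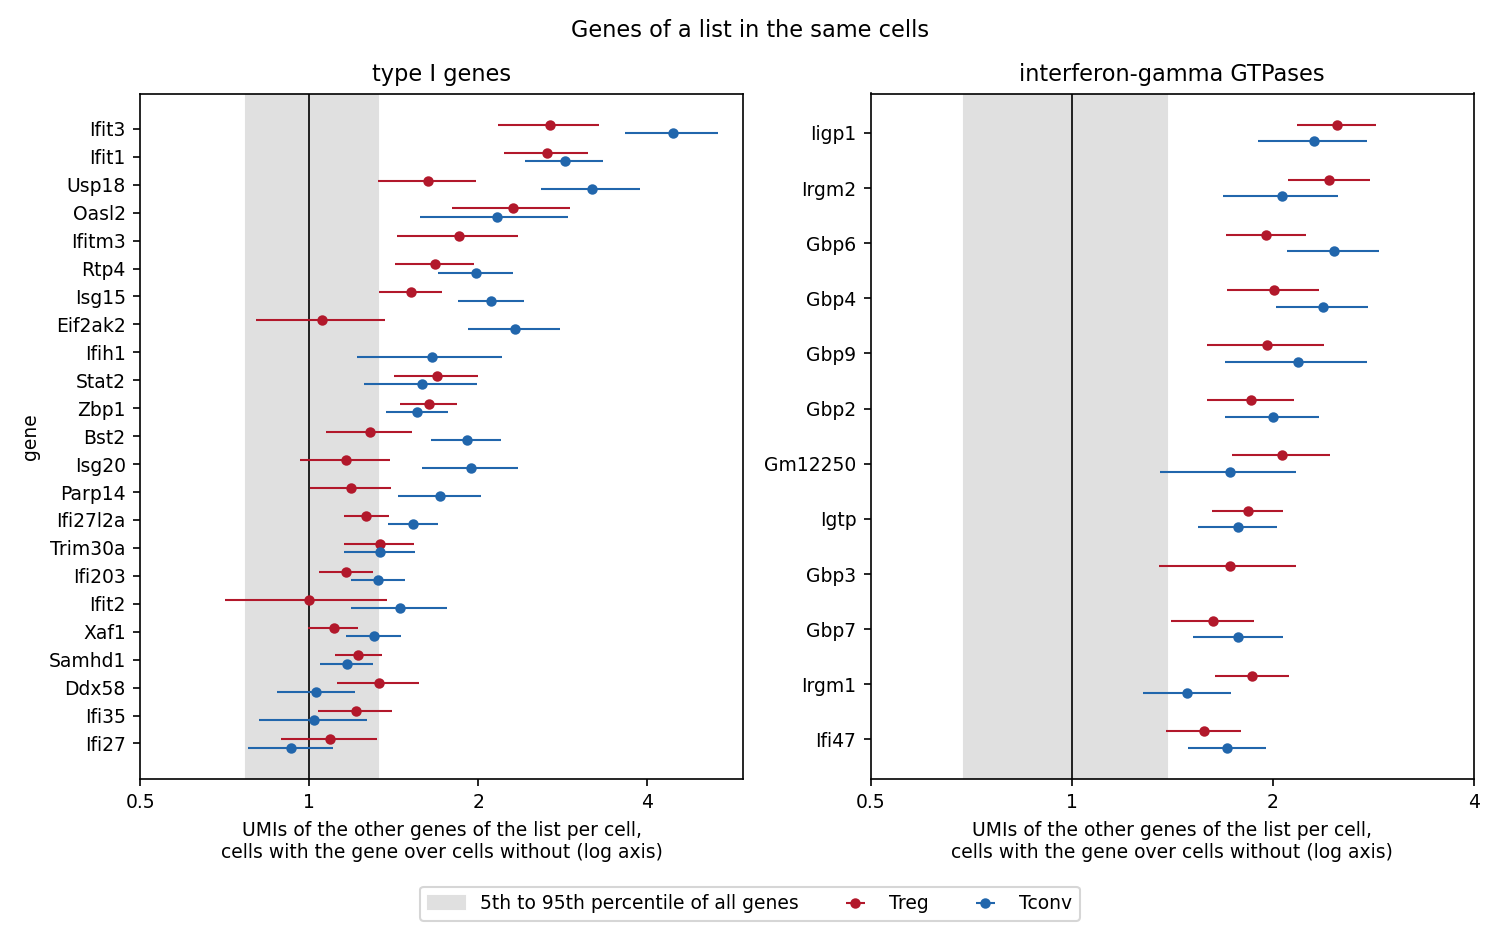
For each member seen in at least 10 thinned cells, mean UMIs of the other genes of its list in cells with the member divided by that in cells without it, on a log axis, with 95% counting intervals; the grey band spans the 5th to 95th percentile of all genes seen in at least 30 cells and at most 50% of cells, taken over both libraries. GTPases lie to the right of the band in both libraries, while Samhd1, Ifi35 and Ifi27 lie within it.

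The same ratio over all genes gives the background; it was added after member values were seen. Over 2877 genes in Treg, each seen in at least 30 thinned cells and at most 50% of cells, the median was 1.01 for type I UMIs (5th to 95th percentile 0.81 to 1.28) and 0.99 for GTPase UMIs (0.69 to 1.39). Over 4117 genes in Tconv it was 1.0 (0.77 to 1.33) and 0.99 (0.70 to 1.36). Above the 95th percentile were 10 of 10 GTPases in each library, and 6 of 14 type I genes in Treg and 10 of 16 in Tconv. Of the 20 genes with the highest ratio for GTPase UMIs, 9 in Treg and 11 in Tconv were members of either list. Members of either list were 0.834% of all ranked genes in Treg and 0.632% in Tconv. Of the 20, 11 were the same genes in both libraries, among them Parp9 and Tgtp2 besides members. Gbp10 was also among them, but its place says nothing new, since it is not measured apart from the member Gbp6. Cd274, which encodes the inhibitory ligand PD-L1, led this ranking in Treg at 2.59. For type I UMIs, 3 of the 20 in Treg and 7 in Tconv were members, and 3 were shared (Isg15, Rtp4 and Parp9). These rankings depended on the genes admitted: a first run with genes in at least 15 cells and no upper limit had 3 and 6 members in the top 20 for GTPase UMIs, with 2 genes shared, and 1 and 8 for type I UMIs, with 1 shared. Without an upper limit, genes seen in nearly every cell can have no UMI in the cells that remain, and their infinite ratios can fill places in that top 20. In that first run, members of either list were 0.568% of all ranked genes in Treg and 0.477% in Tconv. The members above the 95th percentile were then 12 of 12 and 11 of 11 GTPases, and 6 of 18 and 13 of 20 type I genes.

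Across the lists, cells with a GTPase had a median ratio of 1.32 in Treg and 1.58 in Tconv for type I UMIs, below the 1.91 and 2.0 for other GTPase UMIs. Cells with a type I gene had 1.44 and 1.56 for GTPase UMIs, beside 1.31 and 1.62 for other type I UMIs. Here too the type I UMIs included those of Samhd1 and Ifi27l2a. Treg cells with no GTPase UMI had a mean of 2.65 type I UMIs (2.46 to 2.85), those with 1 had 3.12, those with 2 had 3.53 and those with 3 or more had 3.79 (3.52 to 4.07). In Tconv the means were 1.62 (1.51 to 1.74), 1.75, 2.08 and 3.08 (2.84 to 3.33). Pearson's r between the 2 totals was 0.21 over all thinned Treg cells (n = 738) and 0.28 over all thinned Tconv cells, which share a library and were thinned to the same depth. In Tconv the mean rose mainly in the last class, while in Treg it rose with each class and least into the last.

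Effector and resting cells were told apart by markers that are no members. In Treg 36.4% of thinned cells were in the effector class (at least 2 UMIs of S100a4, Crip1, Vim and other effector markers and fewer resting ones) and 15.3% in the resting class (at least 2 UMIs of Ccr7, Satb1 and others and no effector UMI), and in Tconv 12.5% and 25.8%. Type I UMIs were at 3338 CPM in effector and 2920 in resting Treg cells, a log2 ratio of 0.19 (0.01 to 0.38), and at 2489 and 2024 in Tconv, 0.30 (0.10 to 0.49). GTPases were at 1926 and 1699 CPM in Treg (0.18, -0.06 to 0.43) and at 1245 and 1455 in Tconv (-0.22, -0.49 to 0.03). The median over single genes in Treg was 0.05 for 16 type I genes, 8 above 0 and 8 below, and 0.27 for 10 GTPases, beside 0.07 over all genes. In Tconv it was 0.19 for 15 type I genes and -0.20 for 9 GTPases, beside 0.04 over all genes. In Tconv the resting class had the higher Ifi47, 486.01 CPM against 258.99 (-0.91, -1.48 to -0.37), while in Treg the classes stood at 464.7 and 486.7 (-0.07). Ifi27l2a was at 895.9 CPM in effector and 548.7 in resting Treg cells (0.71, 0.30 to 1.13), and Samhd1 at 806.7 and 893.8 (-0.15, -0.50 to 0.21).

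Comparing Treg with Tconv within a class, a comparison added after the values were seen, gave positive type I ratios in both. The ratio was 0.42 (0.24 to 0.61) in effector cells and 0.53 (0.33 to 0.73) in resting cells, beside 0.70 over all thinned cells. Samhd1 stood at 1.22 (0.77 to 1.71) and 1.66 (1.22 to 2.10). The median over 17 measured type I genes was 0.14 in effector cells, beside 0.13 over all genes. Over 12 measured type I genes it was -0.04 in resting cells, beside 0.09 over all genes. The GTPase difference was 0.63 (0.38 to 0.89) in effector cells and 0.22 (-0.03 to 0.47) in resting cells. Ifi47 stood at 486.7 CPM in resting Treg and 486.01 in resting Tconv cells. Whether the GTPase difference differs between the classes was not tested.

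**Figure D5:**
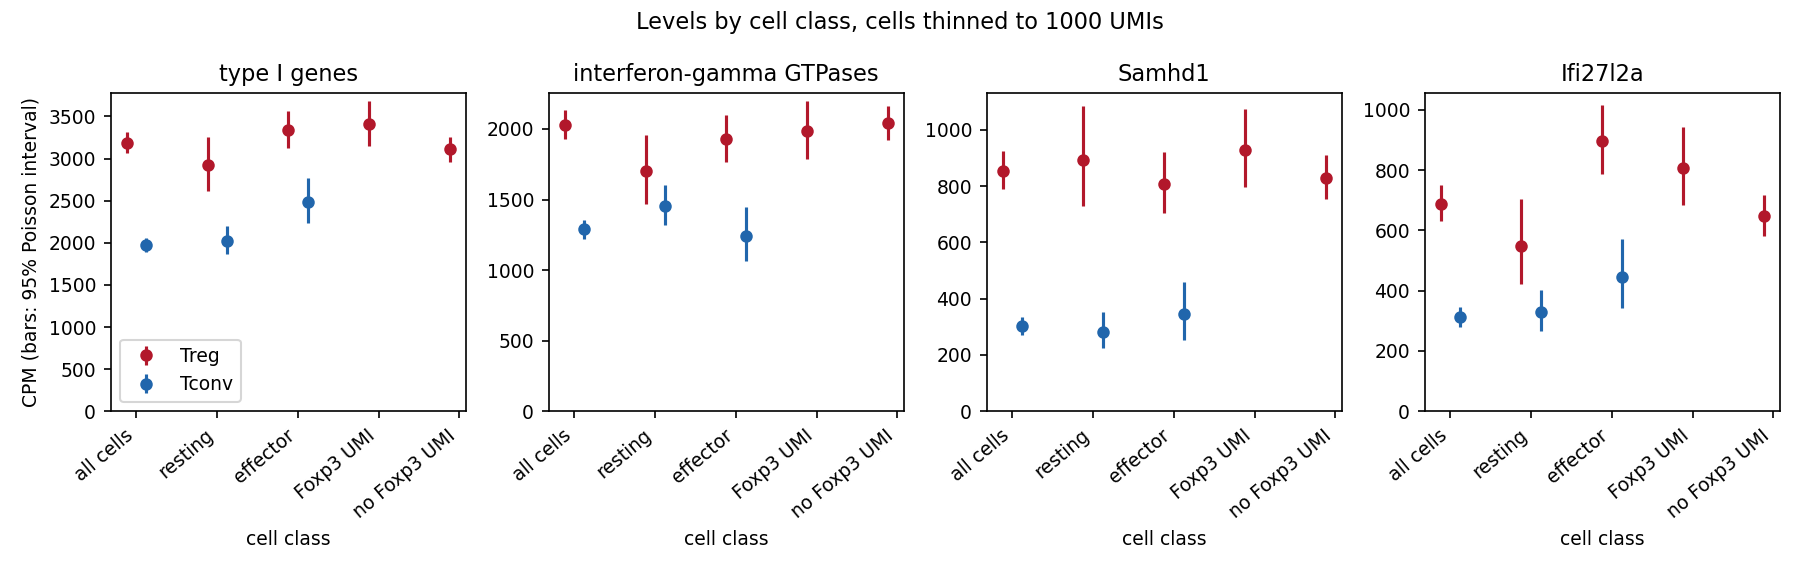
CPM of the type I genes, the GTPases, Samhd1 and Ifi27l2a in cells thinned to 1000 UMIs, by cell class and library, with 95% Poisson intervals; the Foxp3 classes are drawn for Treg only. Samhd1 is higher in Treg than in Tconv in each class shown for both, and the GTPase levels of resting cells (1699 and 1455 CPM) lie closest together.

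Within Treg, the presence of a Foxp3 UMI made little difference to the totals. Cells with one (25.9%) had 3408 CPM of type I genes against 3110 in those without, a log2 ratio of 0.13 (0.00 to 0.26), and 1984 against 2042 CPM of GTPases (-0.04, -0.21 to 0.13). Single members went either way. Irgm2 was at 235.6 CPM with a Foxp3 UMI and 135.3 without (0.80, 0.23 to 1.35), and Ifi27l2a at 806.3 and 647.2 (0.32, 0.03 to 0.59). Rtp4 had 3 UMIs in the cells with a Foxp3 UMI and 56 in the others, a ratio of -2.70 (-5.02 to -1.08), on a count too low for more than its direction.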

How the data were processed

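The authors deposited raw UMI counts per gene and cell for mouse spleen T cells, per the labels and the whole-number values; TopHat2, SAMtools and the build mm10 appear in the submitters' processing notes, while the counter and cell filters are not stated there. Cells were grouped by title and UMIs summed per library (1 per group; cells are not replicates, so nothing was tested). CPM used all UMIs in genes. Ratios have exact conditional, sums exact Poisson and shares exact Clopper-Pearson 95% intervals, computed in Python 3.11.15 with scipy 1.17.1 and checked on simulated data; a ratio needed 20 UMIs. TMM factors came from edgeR 4.0.16. Thinning drew 1000 UMIs per cell without replacement. Scrublet (scanpy 1.11.5) marked 1 Treg and 12 Tconv cells as doublets, which were kept in the main values. Positions are from GENCODE on GRCm38, promoters from RefSeq.

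All members are named; of the signalling list and the wider list, the 8 most counted genes and those at least 2-fold apart with at least 30 UMIs, and the most counted marker of each other list. A gene of the signalling list that meets this rule is not reported here. Members, lists and this rule were chosen with earlier results of these data known. The genes with exon or cell overlap, the genes named by cell class, the further markers (Cd4, Cd2, S100a4, Xbp1, Mzb1, Prdm1, C1qa, Itgam, Cd79a and Hbb-bs), Ifngr2, Ifnar2 and Cd274 were picked after values were seen.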

Additional observations from a re-analysis of the deposited data

How the results depend on the processing

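Of the 37 measured members, 37 stayed within the counting interval of their main ratio without ribosomal protein genes in the total, without called doublets and without the top cell of each library. With TMM factors 34 did; Samhd1 was then at 1.28, Ifi27l2a at 1.02 and Ifi47 at 0.19. In thinned cells 33 did; Eif2ak2 changed sign to -0.17 and Ifih1 stood at -0.93, Irgm2 at 1.46 and Gbp3 at 3.96. Without cells with UMIs of other types Ifitm2 was at 2.42, Ifitm3 at 3.0 and Bst2 at -0.21. Leaving out cells of more than 2 times the median UMIs put Ifitm3 at 1.19. With equal weight per cell Ddx58 was at 0.04. Several other members whose main interval included 0 changed sign in some versions. With equal weight per cell, Rsad2 was at -0.27, Ifitm2 and Ifih1 at -0.19, Ifit3 at -0.15, Trim30a at -0.09 and Bst2 at -0.05. Without cells of other types, Ifit3 was at -0.03 and Oasl2 at -0.01. The ratio of type I sums was 0.59 without ribosomal genes in the total, 0.57 with TMM factors and, in a version added after seeing the data, 0.33 without Samhd1 and Ifi27l2a, which left 2 genes at least 2-fold higher. The type I median was 0.25, 0.22, 0.45 (thinned) and 0.27 (equal weight). For the GTPases the ratio of sums was 0.48 and 0.45, the median 0.67 and 0.65 and the count at least 2-fold higher 3 and 3 under the same 2 scalings. Both scalings lower every ratio by 1 constant each, by construction. Fano factors at 500 UMIs per cell were 2.03 (type I, Treg), 1.89 (type I, Tconv), 2.48 (GTPases, Treg) and 2.01 (GTPases, Tconv). At that depth the ratio for other GTPase UMIs was above 1 for 12 of 12 GTPases in Treg. In Tconv it was above 1 for 10 of 11, the lowest 0.77.

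No paired analysis was possible because each group is 1 library and the numbers in the titles name cells. The intervals of Ifih1, Oasl2, Rsad2 and Usp18, which had at most 41 UMIs in either library, include 0. Thinning leaves under 20 positive cells for several members, so that the ratios of Ifit1 and Ifit3 cells rest on few cells.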

Other observations

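The leading Treg cell for type I UMIs was also the Treg cell in which Rtp4 (11 UMIs) and Ifit3 (9 UMIs) reached their highest counts. Of the 40 Ifit3 UMIs in Treg, 22.5% were in cells with markers of other types, as were 38.3% of the Bst2 and 14.8% of the Stat2 UMIs. Over the whole lists the share was 10% for type I genes and 5.96% for GTPases in Treg, and 4.75% and 3.05% in Tconv. Tgtp1 and Tgtp2, a pair of near-identical IRG genes outside the list, were seen together in 83.7% of the Treg and 81.8% of the Tconv cells with either, and stood at -0.16 and -0.27, beside an all-gene median of 0.14.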
